A study of Homo sapiens with 6 samples.

Results

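The 10 genes described here encode 3 Janus kinases (JAK1, JAK2 and TYK2), the transcription factors STAT3 and STAT6, and 5 proteins that restrain the pathway (SOCS1, SOCS2, SOCS3, CISH and SH2B3). They were chosen by name, and all 10 were found among the 61852 genes of the deposited count table. RNA was taken from MEG-01, a human cell line established from a megakaryoblastic leukaemia and carrying the BCR-ABL1 fusion. The control group (n = 3) was transduced with the control pLKO.1 vector. The knockdown group (n = 3) was transduced with sh2-MELK, a short hairpin RNA against the kinase gene MELK. All 6 libraries carry the same batch label and were made from poly(A)-selected RNA. With a single hairpin, an effect of MELK loss and an effect of this hairpin on other transcripts cannot be told apart. The labels call the libraries biological replicates without naming separate cultures. The spread behind each p-value is therefore that of these libraries and may be technical.

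Cytokine receptors have no kinase of their own and carry Janus kinases on their tails. When a cytokine binds, the kinases phosphorylate each other, the receptor and then STAT proteins, which move to the nucleus and switch on target genes. CISH and the SOCS genes are themselves among those targets, and their products bind the receptor or the kinase, block it and can mark it for destruction. SH2B3, also called LNK, is an adaptor that dampens thrombopoietin and erythropoietin receptor signalling through JAK2 in blood progenitors. In megakaryocytes the pathway carries the thrombopoietin signal, and BCR-ABL1 can activate STAT5 without a cytokine.

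CISH was the only member with a STAT motif in the windows searched, so its window is shown beside that of SOCS1, where the search found none. The motif searched was TTCNNNGAA, the palindrome to which most STAT dimers bind, which reads the same on both strands. A second search used the form preferred by STAT6, with 1 more base between the same arms. Capitals mark matches to TTCNNNGAA. Both sequences are the 250 bases before the annotated start, written 5′ to 3′ on the gene's own strand, from RefSeq on GRCh38.p14. CISH lies at chr3:50611775-50612024 on the minus strand and SOCS1 at chr16:11256205-11256454 on the minus strand.
CISH: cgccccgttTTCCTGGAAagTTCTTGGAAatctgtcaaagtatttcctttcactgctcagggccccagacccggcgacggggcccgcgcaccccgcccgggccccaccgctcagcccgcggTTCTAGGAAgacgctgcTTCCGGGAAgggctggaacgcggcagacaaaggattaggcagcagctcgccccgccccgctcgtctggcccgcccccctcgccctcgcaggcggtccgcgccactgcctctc
SOCS1: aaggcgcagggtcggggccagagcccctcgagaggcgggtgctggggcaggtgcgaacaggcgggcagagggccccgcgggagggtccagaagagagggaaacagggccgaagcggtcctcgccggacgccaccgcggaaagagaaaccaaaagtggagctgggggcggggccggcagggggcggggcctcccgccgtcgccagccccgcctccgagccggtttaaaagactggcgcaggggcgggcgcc

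The CISH window held 4 matches to TTCNNNGAA in 2 close pairs. TTCCTGGAA began 241 bases and TTCTTGGAA 230 bases before the start. TTCTAGGAA began 129 bases and TTCCGGGAA 112 bases before it. Of 35116 windows of this length, 2306 (6.6%) held at least 1 match and 5 (0.014%) held at least 4. Windows were found for 9 of the 10 members, SOCS2 being the exception, and CISH was the 1 of those 9 with a match. The windows follow RefSeq starts, and for SOCS3 and STAT6 they missed the stretch before the gene spans given below. The SOCS3 windows were chr17:78360926-78361175 and chr17:78359668-78359917, with the span ending at 78360077. The STAT6 window, chr12:57110290-57110539, lay inside the span, which ends at 57132139. A motif directly before those span ends would not have been found. The wider form was in 5.4% of all windows and in none of the members' windows. These matches describe letters in a short window and say nothing of binding.

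MELK had deposited counts of 219, 206 and 238 in the control libraries and of 16, 124 and 26 in the knockdown libraries. The table appears to hold, on top of each read count, a number drawn from 0, 1, 2, 10 and 100. In 57.9% of the genes every value was one of these 5 numbers. In a model of such additions, 100% of the weight for the value of 124 lay on an added 100. In that model the log2 fold change of MELK was -3.38, and in edgeR's quasi-likelihood test on the counts as deposited it was -1.98 ± 0.69 (SE, adjusted p = 0.104). Totals ran from 18945176 to 21711313 counts per library. The addition matters little for genes with many reads, and 7 of the 10 members had a mean of at least 500 counts. The other 3, SOCS1, SOCS3 and JAK2, are given with modelled reads beside the deposited counts. CPM values below are counts divided by the TMM-scaled library size, which corrects for depth and composition. Among listed markers, those of megakaryocytes summed to 2070 to 2170 CPM in control libraries against 1220 to 1270 CPM after knockdown. Its defining gene ITGA2B was at 38101 to 42813 counts in control libraries against 19793 to 21838 after knockdown and made up most of that sum. GP6, another of the 3 megakaryocyte markers averaging 500 counts or more, went the other way, at 1733 to 1857 counts in control libraries against 2271 to 2667 after knockdown. PF4 and GP1BB held only the 5 added numbers. The erythroid list, which includes EPOR, summed to 660 to 684 CPM in control libraries against 288 to 293 CPM after knockdown. The stromal and endothelial list, mostly PECAM1, lay at 161 to 192 CPM and 238 to 251 CPM. KDR on the same list went the other way, at 447 to 504 counts in control libraries against 299 to 339 after knockdown. The lymphocyte list stayed at 6.60 to 12.3 CPM in all 6 libraries, but no gene on it averaged 500 counts. CD3D on that list had 16, 9 and 4 counts in control libraries against 105, 104 and 107 after knockdown. Such values may hold mostly the added number, so this sum is no measure of lymphocyte RNA. In a bulk sample fewer cells of a type and less RNA per cell cannot be told apart, and the part of these shifts in the results was not tested.

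Levels between genes were compared as RPKM, deposited counts scaled by annotated exonic length and library total. In the control STAT3 stood highest at 39.2 ± 0.949 RPKM (SD, n = 3), ahead of TYK2 at 34.3 ± 1.83, STAT6 at 25.7 ± 0.382 and SH2B3 at 18.3 ± 1.29. SOCS2 followed at 14.3 ± 0.807 and JAK1 at 11.1 ± 0.0861. SOCS1 at 8.56 ± 0.862 and CISH at 8.47 ± 0.584 did not differ beyond their spread. SOCS3 was lower at 2.84 ± 0.0687 RPKM, and JAK2 was lowest of the 10 at 0.178 ± 0.0363. In the knockdown SH2B3 moved from the fourth to the second place at 34.9 ± 1.31 RPKM, just above TYK2 at 32.2 ± 0.616. STAT6 moved from the third to the sixth place at 12.8 ± 0.442 RPKM, where its libraries overlapped those of SOCS1 (12.3 ± 2.00) on deposited counts. With the added number modelled, SOCS1 was at 10.2 RPKM in the knockdown, below CISH at 11.1 and STAT6 at 12.4. JAK1 (19.2 ± 1.35) and SOCS2 (17.8 ± 2.14) also overlapped in the knockdown.

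**Figure D1:**
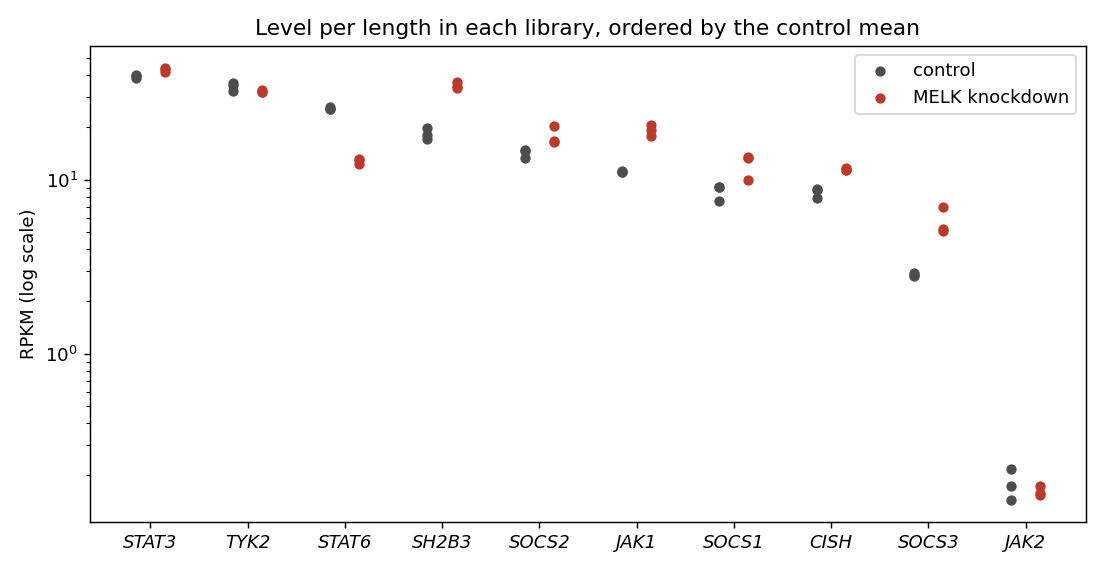
Level per length (RPKM, log axis) of the 10 genes in each library, grey for the 3 control and red for the 3 MELK knockdown libraries, ordered by the control mean. STAT3 is at the top in both groups, JAK2 lies under 0.22 RPKM in all 6 libraries, and SH2B3 moves up and STAT6 down the order.

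The order depends on the length used. Per length of the principal annotated transcript, SOCS2 was at 33.6 and CISH at 21.2 RPKM in the control, above SH2B3 at 19.2 and JAK1 at 13.9. STAT3 and TYK2 kept the top 2 places and SOCS3 and JAK2 the last 2. By this length SH2B3 was at 36.7 RPKM in the knockdown, below TYK2 at 50.1 and SOCS2 at 41.9. SH2B3 moved from place 6 to place 4, and STAT6 from place 3 to place 7. The libraries also held few reads for AT-rich genes. Of 2897 protein-coding genes with under 40% GC in the longest transcript, 7.8% reached a mean of 500 counts, against 33.2% of 6404 genes with 50 to 60% GC. The longest JAK2 transcript had 39.2% GC, the lowest of the 10 members. The part of GC content in its low level was not tested.

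EdgeR's quasi-likelihood test, Benjamini-Hochberg adjusted over all genes, called 6 of the 10 members, 4 higher and 2 lower in the knockdown. Over all 28303 genes tested, 16.5% were called, 8.12% higher and 8.43% lower. Among the 5038 genes averaging 500 counts or more, where the added number matters little, 68.0% were called, 32.5% higher and 35.5% lower. There 5 of 7 members were called, 3 higher and 2 lower, near that background. The knockdown and control libraries did not overlap in 8 of the 10 members, against 30.7% of all tested genes. For the 7 well-measured members it was 6, against 79.2% of genes at that mean (38.1% higher and 41.0% lower). The median log2 fold change was 0.31 over the 10 members and 0.02 over all tested genes. With the added number modelled, 8 of 10 members passed, 6 higher and 2 lower, where 57.7% of 16593 genes passed. At a mean of 500 counts or more the model called 73.2% of genes, 36.0% higher and 37.2% lower. The members' counts lie near these backgrounds for well-measured genes, and the results below are about which members moved and how far.

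**Figure D2:**
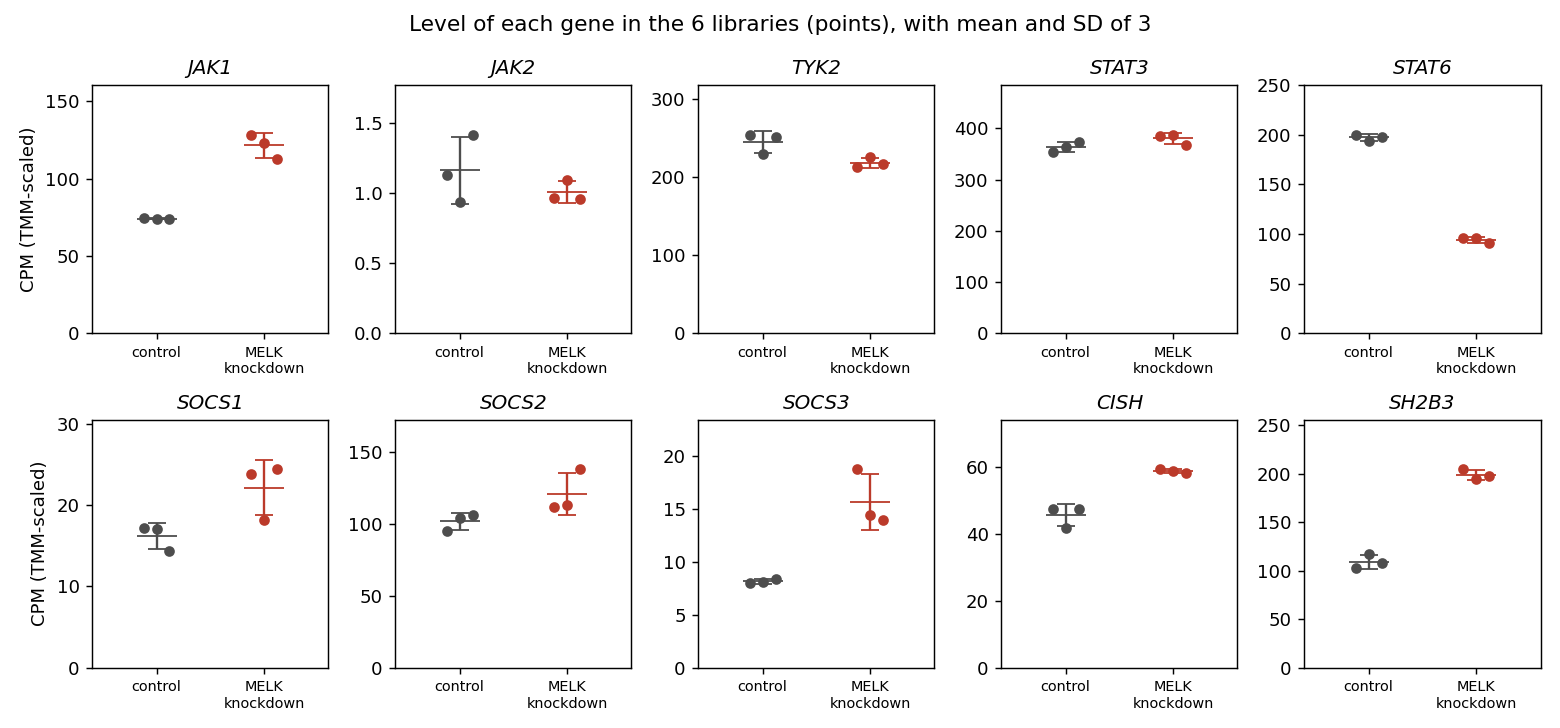
TMM-scaled counts (CPM) of each gene in the 3 control (grey) and 3 knockdown (red) libraries; bars are the mean and SD, and each axis starts at 0. JAK1, SH2B3, CISH and SOCS3 lie higher and STAT6 lower in every knockdown library, while STAT3 and JAK2 overlap.

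Among the kinases JAK1 rose, TYK2 had a small decrease that depended on the processing, and JAK2 was too low to judge. JAK1 (ENSG00000162434, GRCh38 chromosome 1, 64833229 to 64966504), which serves interferon, interleukin-6 and common gamma chain receptors, was at 74.3, 73.7 and 73.7 CPM in control libraries against 128.5, 123.2 and 112.9 CPM after knockdown. All 3 knockdown libraries lay above all 3 control libraries. On the log2 scale the fold change was 0.72 ± 0.05 (SE, edgeR adjusted p = 2.56e-05), a 1.64-fold rise. It ran from 0.55 to 0.79 over 18 alternatives and passed in each of them. By size this change exceeded that of 79.6% of genes averaging 500 counts or more.

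TYK2 (ENSG00000105397, chromosome 19, 10350529 to 10380676), the partner kinase at interferon and interleukin-12 receptors, was at 254.7, 229.4 and 251.0 CPM in control libraries against 213.5, 225.9 and 216.7 CPM after knockdown. The groups did not overlap, but control replicate 2 and knockdown replicate 2 lay close together. The log2 fold change of -0.16 ± 0.05 (SE) barely passed (edgeR adjusted p = 0.0468). The call was lost in each fit that left out 1 library other than control replicate 2, with adjusted p of 0.0803 to 0.206. With the trend of each library with GC content and length removed, the value turned to 0.13 ± 0.03 (edgeR adjusted p = 0.00229). The longest TYK2 transcript has 61.3% GC, and genes with 59.9 to 71.9% GC had a median log2 fold change of -0.27. The direction for TYK2 thus changed with this correction.

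JAK2 (ENSG00000096968, chromosome 9, 4984390 to 5128183), the kinase of the thrombopoietin and erythropoietin receptors, had only 23, 18 and 29 counts in control libraries against 19, 22 and 18 after knockdown. The groups overlapped. None of the 6 values can hold the added 100, since all lie below it, and the modelled reads were 20.2 per library in the control (95% interval 13.6 to 27.0) and 18.5 in the knockdown (10.9 to 24.4). The modelled log2 fold change was -0.13, with a 95% interval of -0.94 to 0.565, and JAK2 did not pass (adjusted p = 0.756). A change within that interval was not detectable at this depth.

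Ratios between genes of the same library are free of any scaling between libraries. Counts of JAK1 were 0.292, 0.321 and 0.293 times those of TYK2 in control libraries against 0.602, 0.545 and 0.521 times after knockdown. The mean ratio went from 0.302 ± 0.0167 to 0.556 ± 0.0414 (SD, n = 3), 1.84 times higher. All 3 knockdown ratios exceeded all 3 control ratios (exact permutation test, two-sided p = 0.1, the smallest that 3 against 3 allows). The shift between these 2 kinases thus does not rest on the choice of scaling. It was smaller with the GC and length trend removed, where JAK1 stood at 0.55 and TYK2 at 0.13 on the log2 scale.

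STAT6 showed the largest fall of the 10, and STAT3 moved little. STAT6 (ENSG00000166888, chromosome 12, 57095408 to 57132139), the factor that carries interleukin-4 and interleukin-13 signals, was at 200.4, 194.2 and 197.9 CPM in control libraries against 95.6, 95.8 and 90.4 CPM after knockdown. Spread within a group was 3.11 and 3.04 CPM (SD), small beside the gap between groups. On the log2 scale the fold change was -1.07 ± 0.04 (SE, edgeR adjusted p = 5.19e-07), a 2.10-fold fall, and it stayed between -1.09 and -0.88 in 18 alternatives, past the threshold in each. The change was larger in size than that of 92.8% of genes averaging 500 counts or more. STAT6 shares 69 annotated exonic bases with NAB2 and 59 with LRP1, both on the opposite strand. Strand use in counting is not given in the sources used here. NAB2 was at 505 to 648 counts in control libraries against 656 to 687 after knockdown, and LRP1 at 239 to 326 and 45 to 78, all well under STAT6 at 1706 to 4091.

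STAT3 (ENSG00000168610, chromosome 17, 42313324 to 42388568), the factor of interleukin-6 family cytokines, was the most abundant member. It was at 353.5, 363.9 and 373.5 CPM in control libraries against 385.0, 388.0 and 368.2 CPM after knockdown, and the groups overlapped. The log2 fold change of 0.07 ± 0.03 (SE) did not pass (edgeR adjusted p = 0.309). It passed in 2 of 18 alternatives, with library size alone (0.14, edgeR adjusted p = 0.0184) and with only genes of at least 500 mean counts tested (0.08, edgeR adjusted p = 0.0368). The modelled log2 fold change was 0.08 with a 95% interval of -0.045 to 0.21. The ratio of STAT6 to STAT3 counts was 0.567, 0.534 and 0.530 in control libraries against 0.248, 0.247 and 0.246 after knockdown. The knockdown ratio was thus 0.454 times the control ratio, with no overlap (exact permutation test, two-sided p = 0.1, the smallest possible here).

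**Figure D3:**
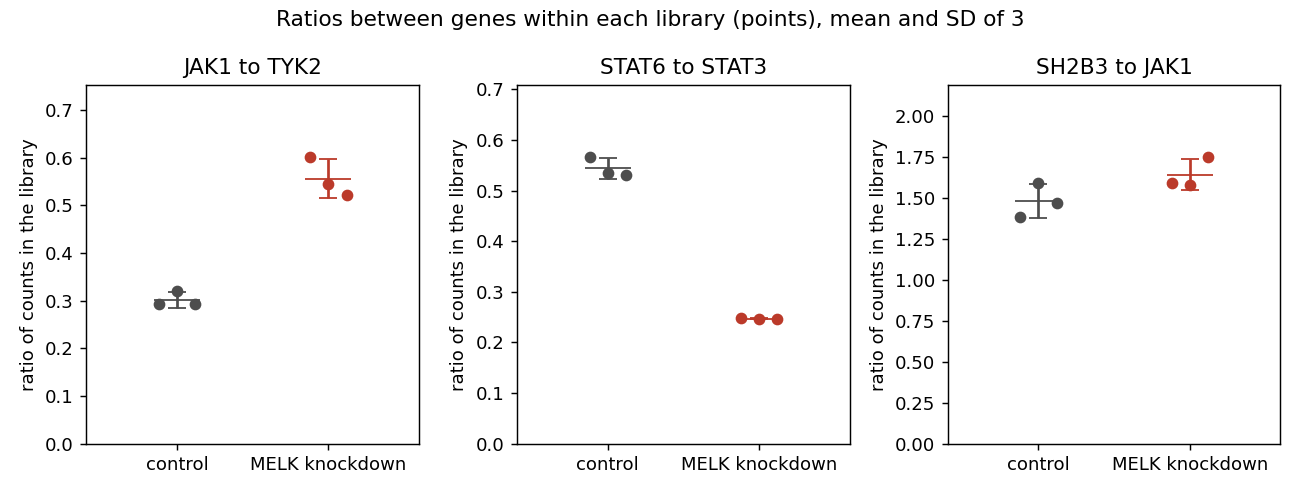
Ratios of counts between pairs of the genes within each library (points), with mean and SD of the 3 control (grey) and 3 knockdown (red) libraries. JAK1 to TYK2 rises from 0.302 to 0.556, STAT6 to STAT3 drops from 0.543 to 0.247, and SH2B3 to JAK1 overlaps between groups.

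Of the 5 brakes, SH2B3, SOCS3 and CISH rose and none fell in edgeR, with SOCS1 and SOCS2 not past the threshold. Over all genes tested 8.12% were called higher, and 32.5% of those averaging 500 counts or more. SH2B3 (ENSG00000111252, chromosome 12, 111405948 to 111451623) was at 102.7, 117.4 and 108.0 CPM in control libraries against 204.7, 194.4 and 197.7 CPM after knockdown. Every knockdown library lay above every control library. On the log2 scale the fold change was 0.86 ± 0.05 (SE, edgeR adjusted p = 9.73e-06), or 1.82-fold. It was 1.00 ± 0.05 with the GC and length trend removed and passed in all 18 alternatives. SH2B3 shares 69 annotated exonic bases with ATXN2 on the opposite strand, which was at 588 to 682 counts in control libraries against 633 to 778 after knockdown. SH2B3 was 1.48 ± 0.106 times JAK1 by counts in the control and 1.64 ± 0.0956 times in the knockdown (SD, n = 3). Those ratios overlapped (exact permutation test, two-sided p = 0.2).

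SOCS3 (ENSG00000184557, chromosome 17, 78356778 to 78360077), which binds the interleukin-6 receptor subunit gp130 and blocks JAK1, had 163, 157 and 173 counts in control libraries against 370, 290 and 264 after knockdown. Knockdown replicate 1 stood apart, and 99.8% of the model's weight put 100 of its 370 counts on the added number. Modelled reads rose from 158.3 per library (95% interval 141.6 to 176.2) to 277.5 (253.6 to 305.7). The modelled log2 fold change was 0.81 (95% interval 0.605 to 1.02, adjusted p = 1.45e-08), beside 0.94 ± 0.16 (SE, adjusted p = 0.00412) in edgeR. Both fits therefore gave a rise, and SOCS3 passed in the 15 edgeR and 9 model alternatives that tested it.

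SOCS1 (ENSG00000185338, chromosome 16, 11254405 to 11256200), which blocks Janus kinases by sitting in their active site, had 350, 328 and 295 counts in control libraries against 470, 366 and 460 after knockdown. The groups did not overlap as deposited. In knockdown replicates 1 and 3 the model put 99.0% and 99.6% of the weight on an added 100, which brings both near the 366 of replicate 2. The modelled log2 fold change was 0.24 (95% interval 0.06 to 0.425, adjusted p = 0.0189). In edgeR it was 0.45 ± 0.14 (SE) and did not pass (adjusted p = 0.0782), though it passed in 4 of the 15 alternatives that tested it. Without knockdown replicate 2 the modelled value was 0.60. With 4 times the dispersion it was 0.41 and did not pass (adjusted p = 0.0743). The modelled call was also lost without control replicate 3 (0.15, adjusted p = 0.188) and without knockdown replicate 3 (0.22, adjusted p = 0.0606).

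CISH (ENSG00000114737, chromosome 3, 50606490 to 50611831), a STAT5 target that binds activated receptors, was at 47.5, 41.8 and 47.5 CPM in control libraries against 59.4, 58.9 and 58.2 CPM after knockdown. All knockdown libraries lay above the control. The log2 fold change was 0.37 ± 0.06 (SE, edgeR adjusted p = 0.00315), and CISH passed in all 18 alternatives. The value was 0.56 ± 0.07 with the GC and length trend removed. CISH shares 218 annotated exonic bases with MAPKAPK3 on the opposite strand, which had 6089 to 6838 counts in control libraries against 5913 to 6339 after knockdown. Without strand, reads of this stretch cannot be told apart.

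SOCS2 (ENSG00000120833, chromosome 12, 93569814 to 93583487), the restraint on growth hormone signalling, was at 95.1, 104.2 and 106.3 CPM in control libraries against 112.0, 113.4 and 138.0 CPM after knockdown. The groups did not overlap, but knockdown replicate 3 was well above the other 2. On the log2 scale the fold change of 0.25 ± 0.085 (SE) did not pass in edgeR (adjusted p = 0.0962) and passed in the model at 0.27 (95% interval 0.13 to 0.405, adjusted p = 0.000553). The modelled call was lost without knockdown replicate 3 (0.16, adjusted p = 0.075) and with 4 times the dispersion (0.27, adjusted p = 0.0805). SOCS2 passed in 7 of the 18 alternatives to the edgeR fit, among them the replicate block (0.25, edgeR adjusted p = 0.0372) and DESeq2 (adjusted p = 0.00192). With the GC and length trend removed it was 0.11 ± 0.07 (edgeR adjusted p = 0.15), and 0.11 with the replicate block as well (edgeR adjusted p = 0.0474). The antisense gene SOCS2-AS1 shares 277 exonic bases with SOCS2 and was at 312 to 381 counts in control libraries against 240 to 388 after knockdown.

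**Figure D4:**
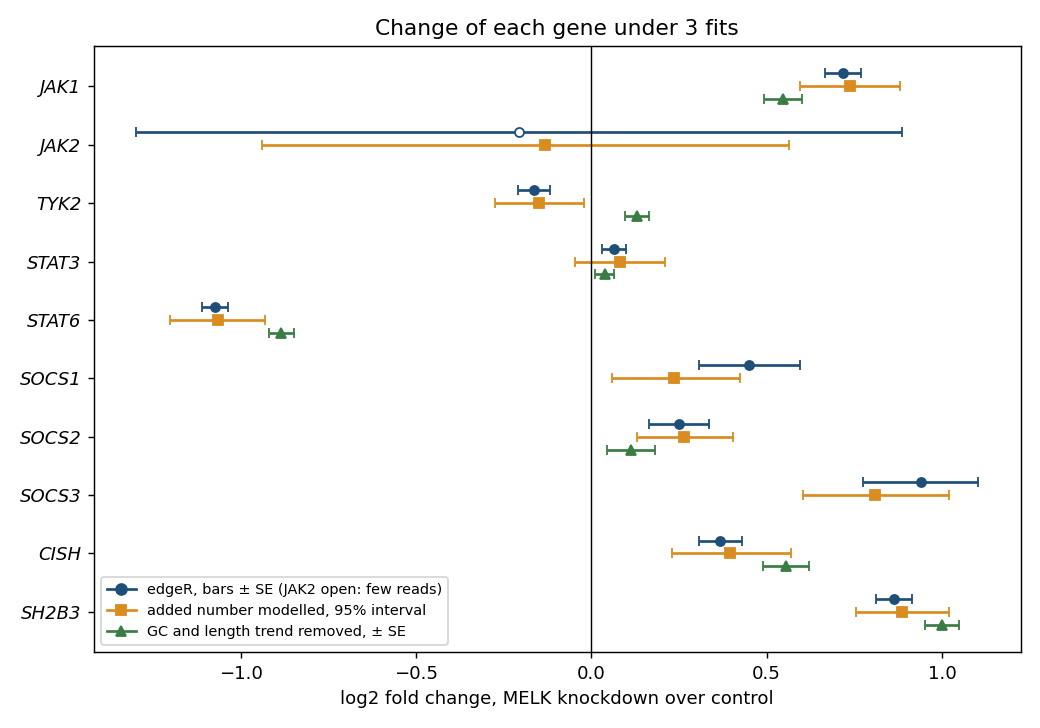
Log2 fold change (knockdown over control) of each gene in 3 fits: edgeR with SE (circles), the model of the added number with its 95% interval (squares) and edgeR with the GC and length trend removed with SE (triangles, 7 genes). SH2B3, JAK1, SOCS3 and CISH lie to the right and STAT6 at -1.07 to -0.88 to the left; TYK2 changes side, and JAK2 spans 0.

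Over the 6 libraries and 5037 other genes averaging 500 counts or more, the profiles nearest to SH2B3 in centred log2 CPM were those of AREL1, EIF4G2 and NDEL1. Their root mean square differences from it were 0.0265, 0.0323 and 0.0428. Nearest to STAT6 were CAPNS1, TWF2 and C19orf48P, at 0.0163, 0.0205 and 0.0214.

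The rest of the pathway was read from gene lists, given here for members averaging 500 counts or more, where 68.0% of all genes were called. The 3 other JAK and STAT genes at that level fell. STAT5A and STAT5B, which carry thrombopoietin and erythropoietin signals, fell by 0.35 ± 0.03 and 0.15 ± 0.02 on the log2 scale, and STAT2, of the type I interferon response, fell by 0.47 ± 0.06. STAT5B did not pass with the added number modelled (-0.135, adjusted p = 0.0643) or in edgeR with library size alone (-0.078, adjusted p = 0.0598). With the GC and length trend removed, STAT5A was at -0.132, STAT5B at -0.142 and STAT2 at -0.528, each still past the threshold. JAK3 and STAT4 had mean counts of 78.3 and 65.8 and did not pass.

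Of 10 receptor genes 1 was higher, 5 were lower and 4 did not pass, where 32.5% of all genes at that mean were higher and 35.5% lower. The median of these 10 log2 fold changes was -0.33, against -0.02 over all genes with that mean. EPOR, the erythropoietin receptor, had 961, 856 and 874 counts in control libraries against 392, 401 and 381 after knockdown, a fall of 1.16 ± 0.07 on the log2 scale (SE, edgeR adjusted p = 6.41e-06). CSF2RB, the shared beta chain of the interleukin-3, interleukin-5 and GM-CSF receptors, fell by 0.84 ± 0.07. LEPR, the leptin receptor, fell by 0.69 ± 0.17, and this call was lost in 6 of 18 alternatives. The modelled log2 fold change of LEPR was -0.867. IL4R, the interleukin-4 receptor chain that recruits STAT6, had 3685, 3231 and 3457 counts in control libraries against 1930, 2117 and 2005 after knockdown. It fell by 0.74 ± 0.05 (edgeR adjusted p = 1.26e-05), beside the fall of 1.07 in STAT6. Over all 30 receptors tested edgeR gave 3 higher and 7 lower, where 8.12% of all tested genes were higher and 8.43% lower. Of the 3 higher, IL3RA held 2, 1 and 1 against 100, 100 and 100, all of them among the 5 added numbers. The model gave 8 higher and 8 lower of 27, with a median of 0.08.

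LIF was the only 1 of 23 cytokine ligands with a mean of at least 500 counts. This interleukin-6 family cytokine, which signals through gp130, JAK1 and STAT3, had 873, 696 and 755 counts in control libraries against 1735, 1750 and 1498 after knockdown. It rose by 1.14 ± 0.08 on the log2 scale (SE, edgeR adjusted p = 1.66e-05). Over the 16 ligands tested edgeR gave 1 higher and 1 lower, where 16.5% of all tested genes were called. In the model, 5 ligands were higher and 2 lower of 11, where 57.7% of all genes passed. Of those 5 only LIF passed in edgeR. CSF3, another of them, had 2, 2 and 147 counts in control libraries against 15, 159 and 1 after knockdown. Its modelled log2 fold change was 0.60 (adjusted p = 0.0449), beside 0.24 ± 2.155 (SE) in edgeR.

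Of 8 other regulators of the pathway 2 rose, 4 fell and 2 did not pass. PTPN6, which encodes the phosphatase SHP-1, fell by 0.58 ± 0.03 and PIAS3, an inhibitor of STAT3, by 0.50 ± 0.11. SH2B1, a relative of SH2B3 that supports JAK2 and does not restrain it, fell by 0.82 ± 0.17. STAM, an adaptor that sorts receptors in endosomes, rose by 0.45 ± 0.05. PIAS3 lost its call in 5 of 18 alternatives, SH2B1 in 3 and STAM in 2. The modelled log2 fold change was -0.586 for PIAS3 and -0.86 for SH2B1. SOCS proteins work with a ubiquitin ligase, and of its 4 listed partners averaging 500 counts or more 3 rose and 1 fell. The adaptor ELOC rose by 0.93 ± 0.12, the ring proteins RBX1 by 0.76 ± 0.07 and RNF7 by 0.25 ± 0.065, and the adaptor ELOB fell by 0.21 ± 0.04. The call for RNF7 was lost in 10 of 18 alternatives, each fit with 1 library left out among them, and turned in 2 more. The values of RNF7 and ELOB turned to -0.09 and 0.07 with the GC and length trend removed, neither past the threshold. The listed partners CUL5 and CUL2 had mean counts of 93.7 and 142.2 and did not pass in edgeR. In the model CUL5 was at 0.565 (adjusted p = 0.00124) and CUL2 at -0.075 (adjusted p = 0.633).

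Of 28 genes known as STAT targets in blood or immune cells, 15 had a mean of at least 500 counts. Of these 4 were higher, 9 lower and 2 not past the threshold, with a median of -0.29. Of all genes at that mean 32.5% were higher and 35.5% lower. With the GC and length trend removed, 6 of the 15 targets were higher and 8 lower. MYC fell by 0.95 ± 0.04 and SPI1, the myeloid factor PU.1, by 1.13 ± 0.05. The survival gene MCL1 rose by 0.84 ± 0.05, and the cell cycle inhibitor CDKN1A rose by 1.81 ± 0.05. The list thus moved in both directions. These genes have many other regulators, and the part of STAT proteins in their levels was not tested.

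**Figure D5:**
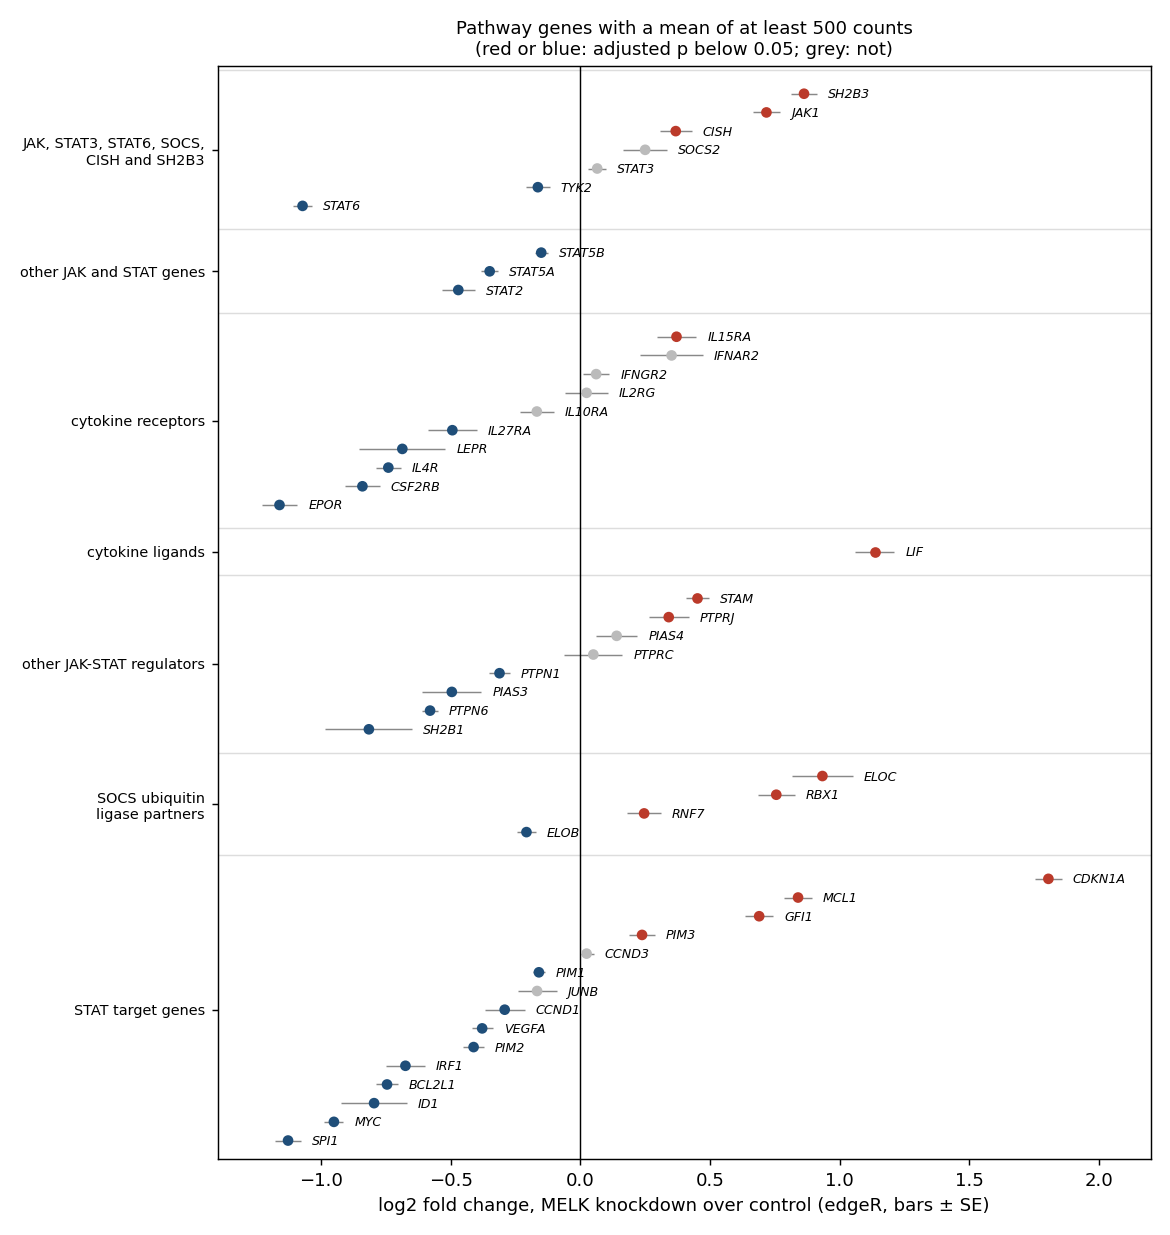
EdgeR log2 fold changes (bars ± SE) of pathway genes averaging 500 counts or more, by list; red and blue points passed the threshold upward and downward and grey points did not. Receptors spread to both sides, with EPOR lowest at -1.16, and of the 4 ubiquitin ligase partners 3 lie to the right.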

How the data were processed

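RNA from 6 MEG-01 libraries was compared, 3 control against 3 MELK knockdown, with groups and replicate numbers from the sample titles. The authors deposited whole-number counts per gene. The submitters' processing notes name STAR, HTSeq, fastp, FastQC, DESeq2, R 4.3.3 and the build GRCh38, with no roles. How reads were counted, and with which strand setting and annotation, is not given in the sources used here. Each value appears to hold an added number of 0, 1, 2, 10 or 100, inferred from the pattern of low values and of unknown origin. Symbols, lengths, GC content and coordinates came from GENCODE release 29 (GRCh38) and a gene name table. The deposited gene versions matched that release for 1 of the 10 genes.

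Counts were fitted with edgeR 4.0.16 (TMM, filterByExpr with a minimum count of 10, robust quasi-likelihood F-test, no block) and adjusted over all genes by Benjamini-Hochberg, at a threshold of 0.05. A second fit treated each value as negative binomial reads (dispersion 0.00292, the same for every gene) plus 1 of the 5 numbers, with a likelihood-ratio test and 95% profile intervals, over genes with at least 5 modelled reads in a group. It ignores differences in spread between genes, so its p-values are likely too small where a gene varies more. GC and length trends were removed with splines from genes averaging 500 counts or more. Alternatives were other scalings, filters, DESeq2 1.42.0, limma-voom (limma 3.58.1), the replicate block and each library left out. Both fits were tested on data simulated with the model's single dispersion and the 5 numbers drawn equally. Of planted log2 changes of 0.5 and 2, the model called 82.5% and 98.6% in the right direction and edgeR 17.5% and 55.7%. The simulation follows the model's own assumptions, so it cannot show how the model does where spread differs between genes.

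The members and lists were chosen with earlier results of these data known. Named outside the members are the genes with the largest called changes in each list at a mean of at least 500 counts (up to 4 per list). Also named are genes that share at least 59 annotated exonic bases with a member, markers, and the 3 nearest profiles to the members with the largest rise and fall. Genes that overlap a member with fewer shared exonic bases were left out. JAK3, STAT4, IL3RA, CSF3, CUL5 and CUL2 lie outside that rule and were named after their values were seen.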

Additional observations from a re-analysis of the deposited data

How the results depend on the processing

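JAK1, STAT6, CISH and SH2B3 kept their direction and call in all 18 alternatives to edgeR's main settings, and SOCS3 in the 15 that tested it. Removing the GC and length trend turned TYK2 to 0.13 (0.13 with the replicate block too), ELOB to 0.072 (0.071) and RNF7 to -0.092 (-0.094). By construction it uses only genes averaging 500 counts or more. JAK2, taken from the lowest value of each group (an alternative added after the values were seen, as was the principal transcript length), was at 0.03 in place of -0.13. The number of members called in edgeR was 6, and 5 to 8 under every alternative. In the model it was 8, and 5 with 4 times the dispersion and 5 to 8 with 1 library left out, the 5 coming without knockdown replicate 3; TYK2 passed in 2 of the 9 model alternatives. All genes called numbered 4683 in edgeR (3808 to 4064 with 1 library left out) and 9581 in the model (8761 to 9102). Same-numbered libraries did not deviate together (correlations 0.0998, -0.0124 and -0.0801); with the replicate block 4182 genes and 6 members passed, SOCS2 gaining and TYK2 losing its call (adjusted p = 0.12). Library size alone shifted the median log2 fold change by 0.07 and also called STAT3 (0.14), SOCS1 (0.53) and SOCS2 (0.32). Depth limits JAK2 most, then SOCS3 and SOCS1.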

Other observations

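Some regulators with a mean under 500 counts changed more than any of the 10 genes. They, and the other genes in this section, were picked after their values were seen. CBL, a ubiquitin ligase that restrains cytokine receptors, had 696, 817 and 713 counts in control libraries against 200, 187 and 301 after knockdown, a fall of 1.65 ± 0.20 on the log2 scale (SE, edgeR adjusted p = 0.000543). Its relative CBLB had 91, 99 and 107 counts in control libraries against 329, 375 and 314 after knockdown, a change of 1.81 ± 0.16 (edgeR adjusted p = 7.04e-05). The groups did not overlap in either gene, and the modelled changes were -1.82 and 1.86. PTPN11, which encodes the phosphatase SHP-2, had 403, 408 and 260 counts in control libraries against 88, 165 and 71 after knockdown (-1.70 ± 0.33, edgeR adjusted p = 0.00732). The modelled change of PTPN11 was -1.96.

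Cytokines of the interleukin-6 family also differed in direction. OSM, the cytokine oncostatin M, had 202, 288 and 208 counts in control libraries against 105, 100 and 104 after knockdown, a fall of 1.15 ± 0.24 on the log2 scale (edgeR adjusted p = 0.0117), while LIF rose. The modelled change of OSM was -0.93, but its knockdown counts lie so near the added 100 that the modelled reads there ran from 1.82 to 116.3 (95% interval). IL6 did not pass in edgeR (1.40 ± 0.60, adjusted p = 0.204), and the modelled change was 2.27. IFNGR1, the ligand-binding chain of the interferon gamma receptor, rose by 0.79 ± 0.15 (edgeR adjusted p = 0.00674), and IL21R fell by 0.81 ± 0.21 (adjusted p = 0.0329). The modelled changes were 0.998 for IFNGR1 and -1.04 for IL21R.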
